A study of Mus musculus with 9 samples.

Results

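The comparison described here sets normal blood stem and progenitor cells taken at day 14 of leukemia against the same cell fraction taken at day 7, to ask how these cells differ between the stages of the disease. It uses 6 of the 9 arrays of the series, chosen by their titles: 3 from leukemic mice at day 7 and 3 from leukemic mice at day 14. The other 3 arrays, from control mice, entered the fit for its estimate of the spread. In every group the mice were C57BL/6, aged 8 weeks, and CD45.1+ LKS+ cells were sorted from bone marrow. CD45.1 is an allele of a pan-leukocyte surface antigen that separates cells of different origin, and LKS+ cells lack lineage markers and carry Kit and Sca-1. The labels call the cells normal stem cells. How leukemia was started is not given in the sources used here. The replicates are called biological, but nothing says that each came from a separate animal, and the p-values describe no more than the scatter among these samples, which may be technical. Elapsed time and stage of leukemia cannot be told apart, and no batch label was given.

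Blood stem cells spend most of their lives outside the cell cycle, while the multipotent progenitors of the LKS+ fraction divide. To divide, a cell must first pass from G1 into DNA synthesis, a step that E2F factors drive once cyclin-dependent kinases have released them from the retinoblastoma family. Many of the genes that follow are transcribed in waves: replication genes at the G1/S border and mitotic genes in G2. Signals from the surroundings, such as cytokines, TGF-beta and interferon, act on this machinery and leave their own traces in immediate early and feedback genes.

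RNA had been amplified and hybridised to Affymetrix mouse 430 2.0 arrays, whose unit is the probe set intensity. The median intensity was 23.4 to 23.5 in the day 7 arrays and 23.7 to 24.2 in the day 14 arrays, but the 75th percentile was 128 to 130 at day 7 and 115 to 119 at day 14. Of 18193 genes with a probe set of their own, 12652 were bright enough to be tested. Across these genes the Pearson correlation between arrays was 0.996 to 0.997 within day 7, 0.995 to 0.996 within day 14 and 0.968 to 0.981 between the days. Genes are not independent replicates, so these values only describe how alike the arrays are. In the 6 arrays, the component that separated the days held 82.9% of the variance, and the next held 6.07%. The number of arrays, 3 per group, limits the precision: the median SD of log2 intensity within a group was 0.07 at day 7 and 0.10 at day 14.

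Between day 7 and day 14 the program of cell division fell as a block, together with genes of mitochondria, nuclear pores and proteasomes, while most measured KLF, NR4A and AP-1 transcription factors, the subunits and inhibitors of NF-kB that were called and most megakaryocyte genes rose. A gene was called when limma gave a Benjamini-Hochberg adjusted p below 0.05. By this rule 6455 of 12652 genes were called, 51% of those tested; 2204 were higher at day 14 (17.4%) and 4251 were lower (33.6%). The day 7 and day 14 arrays did not overlap for 7628 genes (60.3%), of which 6289 were called. These shares are the background against which every list below is read. Set against the control arrays in the same fit, 423 genes were called at day 7 (3.34%) and 6626 at day 14 (52.4%); both comparisons share arrays with the one described here. For Skil the day 7 arrays stood 0.57 above control and the day 14 arrays 2.52 above it, whereas Cdk1 stood 0.65 above control at day 7 and at -1.39 against it at day 14, each called by limma.

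Most of the called changes were small. Of the 6455 called genes, 4671 (72.4%) changed by less than 1.5-fold, 446 by at least 2-fold (118 higher and 328 lower), and only 4 higher and 9 lower genes changed by at least 4-fold. The median log2 change, meaning day 14 minus day 7 here and below, was -0.06 over all genes tested, 0.37 among those called higher and -0.45 among those called lower. The 95% interval of the change lay wholly beyond 2-fold for 45 higher and 147 lower genes, and wholly within 0.25 of 0 for 2153 genes (17%). Among the dimmest genes, with mean intensities from 11.6 to 45.8 in a ranking cut into 4 equal classes, there were more calls higher (21.4%) than lower (13.4%). In the 3 brighter classes 12.4% to 21.5% were called higher and 36.1% to 43.4% lower.

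**Figure D1:**
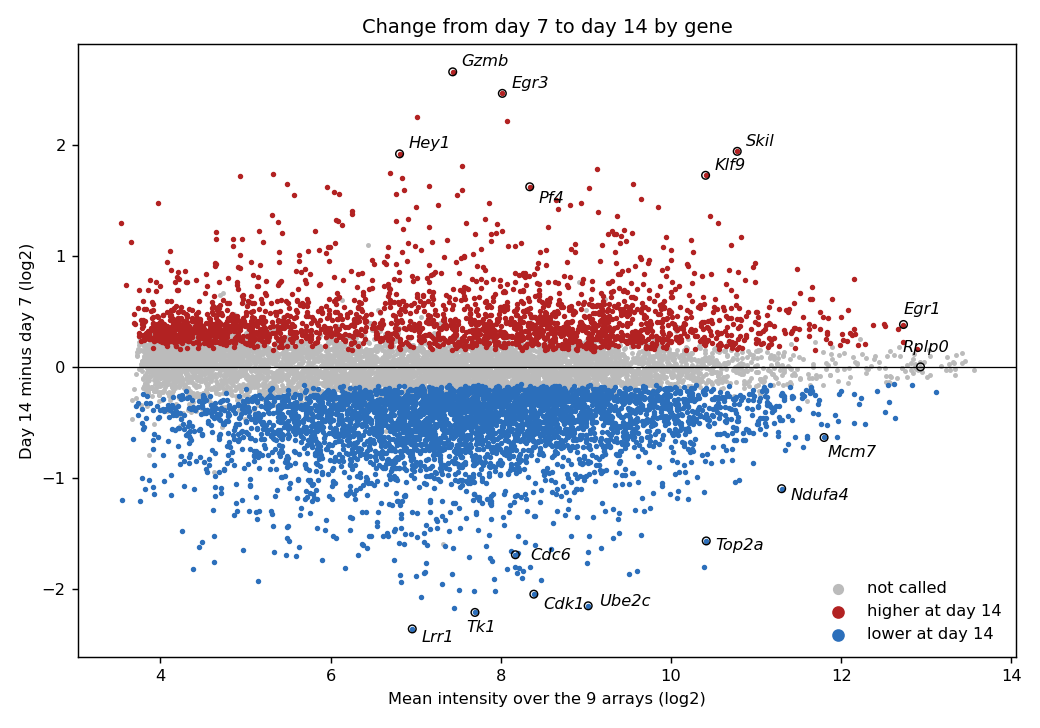
Each point is 1 of the 12652 genes tested, with its mean log2 intensity over the 9 arrays on the x axis and its log2 change from day 7 to day 14 on the y axis; red genes were called higher, blue genes lower and grey genes were not called. The lower edge of the cloud holds replication and mitosis genes (Tk1, Ube2c, Cdk1, Cdc6, Top2a), the upper edge Gzmb, Egr3, Skil, Hey1, Klf9 and Pf4, and the bright ribosomal gene Rplp0 sits at 0.00.

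The balance of higher and lower calls depended on how the arrays were scaled. As deposited, 34.1% of the called genes were higher. After quantile normalization 44% were higher, and after the arrays were set to the same 75th percentile 57.8% were, since that scaling moved the median change of all genes up by 0.13. Directions of genes with small changes are therefore given relative to the deposited scale. Where the counts of a list are printed below, a move of more than 1.5 times under a scaling is given with them.

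**Figure D2:**
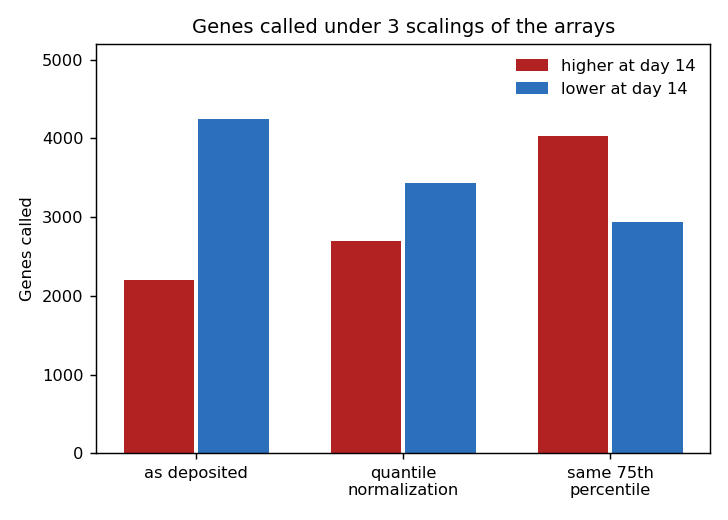
Bars give the number of genes called higher (red) and lower (blue) at day 14 under 3 scalings of the arrays, on an axis that starts at 0. With the deposited values 2204 genes were higher and 4251 lower; with arrays set to the same 75th percentile the order turned, with 4029 higher and 2942 lower.

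Surface genes of stem and progenitor cells were mostly bright at both days. The cells were sorted on Kit, so its signal is no separate check of their identity. Kit, the stem cell factor receptor used in the sort, read 1399, 1526 and 1435 at day 7 and 1905, 1672 and 1510 at day 14, and the groups overlapped. Flt3, a receptor of multipotent progenitors, ran from 1971 to 2278 at day 7 and from 2119 to 2504 at day 14, and Cd34, a progenitor surface protein, from 2230 to 2461 and from 2313 to 2331. Of 17 stem and progenitor surface genes, 15 were above the dim limit in all 6 arrays. Ly6a, which encodes Sca-1, was not analysed here, since its symbol stands alone on no probe set. Genes of mature cells were only in part dim, meaning under the 40th percentile of their array (14.1 to 15.2). Of 15 erythroid genes 9 were above this limit in all 6 arrays and 6 under it in all 6; for neutrophil granule genes these counts were 9 and 4 of 16, for T and NK genes 12 and 3 of 17 and for B lineage genes 11 and 1 of 17. All 19 monocyte, macrophage and dendritic genes were above it in all 6 arrays. Among the dim genes, the alpha-globin gene Hba-a1 ran from 7.27 to 9.67, the T cell gene Cd3g from 2.88 to 3.99, the neutrophil gene Lcn2 from 3.58 to 4.68 and the B cell gene Ms4a1 from 7.63 to 13.9.

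The step from G1 into S phase was lower at day 14. Of 14 G1 cyclins, CDKs and E2F factors, 11 fell, 1 rose and 2 were not called, with a median log2 change of -0.94 against -0.06 over all genes. Ccnd1 encodes cyclin D1, which couples growth signals to CDK4 and CDK6; it read 228, 252 and 228 at day 7 and 86.4, 116 and 110 at day 14. The highest day 14 array was below the lowest day 7 array by more than 100 units, and limma gave a log2 change of -1.19 (SE 0.11, adjusted p 3.1e-05). The other D-type cyclins did not share this: Ccnd2 changed by -0.02 and Ccnd3 by -0.13, and neither was called. Ccne2, a cyclin of S-phase entry, went from 80.6 ± 7.62 to 24.6 ± 6.27 (SD, n = 3 each), a log2 change of -1.74. The activator E2f1 fell by 1.20 and the late repressors E2f7 and E2f8 fell by 1.58 and 1.12 on the log2 scale. Cdk6, a kinase partner of the D cyclins with a wide role in blood progenitors, was the member that rose, from 3802 ± 125 to 4673 ± 127, a change of 0.30 (SE 0.06, adjusted p 0.0017 by limma).

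The inhibitors of these kinases split. Cdkn1a, which encodes p21, read 1294, 1064 and 1433 at day 7 and 2067, 1695 and 1792 at day 14 and rose by 0.56, with no overlap. Cdkn2d, the gene of p19INK4d, rose by 0.55 and Rb1, the retinoblastoma gene, by 0.57. In the opposite direction, Cdkn2c (p18INK4c) fell by 1.19, Rbl1, which encodes the pocket protein p107, fell by 1.35, and Cdkn3, a phosphatase that acts on CDKs, fell by 1.47 on the log2 scale. The inhibitor most tied to stem cell quiescence, Cdkn1c (p57), was not called and its arrays overlapped; its 95% interval ran from -0.29 to 0.16. Cdkn1b (p27) was not called either, at 0.12 with an interval from -0.03 to 0.27.

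Replication licensing, the loading of the MCM helicase on origins, fell almost throughout. Of 20 licensing and helicase genes 19 fell, and the remaining member, Dbf4, the activator of the CDC7 kinase, changed by -0.17 without a call. The list median was -1.15, and all 20 members had day 14 arrays below every day 7 array. Cdc6, which loads the helicase, read 390, 392 and 360 at day 7 and 97.1, 149 and 114 at day 14. These groups lay far apart, with a log2 change of -1.69 (SE 0.14, adjusted p 2.1e-05 by limma). Mcm10, which joins helicase and polymerase, fell by 1.63, and the kinase gene Cdc7 fell by 1.60. The 6 subunits of the helicase fell less, from -0.60 for Mcm6 and -0.63 for Mcm7 to -1.04 for Mcm5 and -1.11 for Mcm3. Mcm7 stayed bright at day 14, at 2443, 2737 and 2665 against 4164, 4117 and 3882.

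Because these genes moved together, their promoters were read for the E2F motif. It was searched on both strands as TTTCCCGC, TTTGGCGC and TTTCGCGC, in windows of the 250 bases before the start (RefSeq, GRCm38.p6). Of the 14 licensing genes with a window, 6 held it (42.9%): Cdc6, Gins3, Mcm5, Mcm6, Mcm7 and Orc1. In the G1 list 4 of 11 did (36.4%), against 347 of 10252 tested genes (3.38%). Other lists that fell had lower shares, such as DNA synthesis genes with 2 of 22 (9.09%) and spindle genes with 1 of 23 (4.35%). Splicing factors, which were mostly not called, had 4 of 22 (18.2%) and MHC class I genes 2 of 10 (20%). Parts of the windows of 3 licensing genes are shown, with motif letters in capitals, at chr11:98907983-98908050 (+ strand), chr8:75109326-75109397 (+ strand) and chr4:108579397-108579453 (+ strand); in Mcm5 the capitals are overlapping matches on opposite strands. A match is a description of the letters, not of a bound site.
Cdc6: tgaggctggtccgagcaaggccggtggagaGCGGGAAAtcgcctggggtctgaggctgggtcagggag
Mcm5: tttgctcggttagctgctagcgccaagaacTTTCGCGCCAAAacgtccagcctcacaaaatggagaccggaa
Orc1: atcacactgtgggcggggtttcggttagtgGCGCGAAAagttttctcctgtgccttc

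All 25 measured genes of DNA synthesis and nucleotide supply fell, with changes from -0.27 to -2.21 and a median of -1.02. Tk1, thymidine kinase, read 338, 332 and 337 at day 7 and 63.3, 83.8 and 72.1 at day 14, a 4.62-fold fall (log2 change -2.21, SE 0.18). Rrm2, the subunit that limits ribonucleotide reductase, went from 1235, 1127 and 1060 to 285, 383 and 298. Pcna, the sliding clamp of the polymerases, fell less, from 4745 ± 69.8 to 3075 ± 15.7 (SD, n = 3 each), a change of -0.63. The falls thus differed in size within the list, and the differences between members were not tested. Of 21 genes of the DNA damage checkpoint and repair, 20 fell and Atr was not called; Brca1 changed by -1.74 and Chek1, the replication checkpoint kinase, by -1.52.

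The lists with the lowest medians were those of mitosis. Of 24 mitotic kinases, cyclins and APC/C genes 23 fell, and of 26 spindle and kinetochore genes 26 fell, with medians of -1.57 and -1.47. Cdk1, the kinase that starts mitosis, read 575, 548 and 476 at day 7 and 113, 129 and 146 at day 14. The change of -2.04 (SE 0.14, adjusted p 1.3e-05 by limma) was several times the spread within either day. Ube2c, which tags mitotic proteins for destruction, went from 1040, 962 and 870 to 205, 196 and 248, a 4.43-fold fall. Kif20a, a kinesin of the final split between daughter cells, fell by 2.07, the kinetochore gene Nuf2 fell by 2.01 and the kinase gene Plk1 fell by 1.93 on the log2 scale. At the other end, Foxm1, a transcription factor of G2 genes, changed by -0.36, and Pttg1, the separase inhibitor securin, was not called at -0.15.

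Genes that shape chromosomes followed. Of 13 measured members 12 fell and Lbr, an inner nuclear membrane protein gene, was not called, with a median of -1.06. In that list 1 gene was higher with arrays set to the same 75th percentile. Top2a, the topoisomerase that untangles sister chromatids, read 2327, 2073 and 1957 at day 7 and 630, 749 and 773 at day 14, a 2.96-fold fall. Mki67, the gene of the proliferation marker Ki-67, went from 1896, 1732 and 1501 to 670, 757 and 823. Its day 14 values also lay below the control mean of 1076 ± 213 (SD, n = 3). The same order held in the medians of whole lists set against the control mean: spindle and kinetochore genes stood at 0.55 to 0.98 at day 7 and at -0.90 to -0.59 at day 14, and licensing genes at 0.13 to 0.23 and then at -1.19 to -0.82. The control arrays themselves ran from -0.18 to 0.26 for spindle and kinetochore genes and from -0.13 to 0.16 for licensing genes. For licensing genes the control and day 7 ranges thus overlapped. In bulk samples fewer cycling cells and less RNA per cycling cell cannot be told apart.

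The CHR, an element of G2/M promoters, was searched as TTTGAA on both strands and is printed in capitals. It stood in 9 of 11 chromosome structure windows (81.8%), 7 of 23 spindle windows (30.4%) and 5 of 19 mitotic kinase windows (26.3%), against 12.6% of tested genes. Other lists had like shares, such as licensing genes with 4 of 14 (28.6%), T and NK genes with 3 of 9 (33.3%) and the interferon-induced GTPases with 3 of 6 (50%). The promoters of Cdk1 (chr10:69352913-69353013, - strand) and Ube2c (chr2:164769870-164769928, + strand) are shown because both genes fell more than 4-fold.
Cdk1: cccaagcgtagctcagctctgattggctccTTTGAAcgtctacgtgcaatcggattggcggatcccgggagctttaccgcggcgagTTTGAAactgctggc
Ube2c: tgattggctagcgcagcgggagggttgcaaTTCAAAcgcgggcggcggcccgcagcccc

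**Figure D3:**
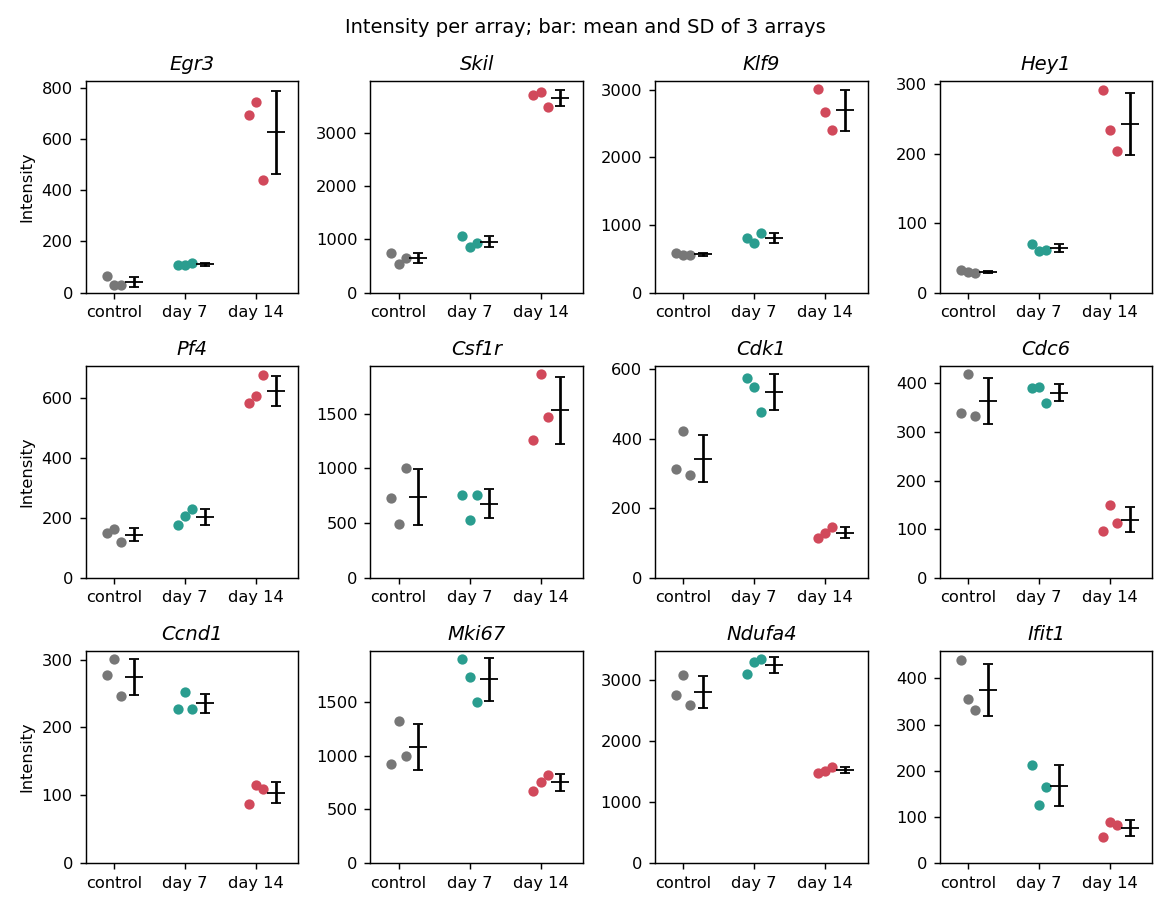
Intensity (linear axis from 0) of 12 genes in each array of the control, day 7 and day 14 groups; the bar beside each group is the mean and SD of 3 arrays. Egr3, Skil, Klf9, Hey1, Pf4 and Csf1r are higher in every day 14 array than in every day 7 array, and Cdk1, Cdc6, Ccnd1, Mki67, Ndufa4 and Ifit1 are lower; Ifit1 has its highest level in control, with a mean of 376.

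Most of the measured immediate early transcription factors rose. Egr3, a zinc finger factor induced by receptor signalling, read 107, 107 and 118 at day 7 and 694, 743 and 441 at day 14, a 5.52-fold rise (log2 change 2.46, SE 0.28, adjusted p 7.2e-05 by limma). Every day 14 array was far above day 7, though the third was lower than its group. A dimmer probe set of Egr3, with a mean intensity of 53.8, changed by 0.17 and was not called, so the size of the rise rests on the brighter probe set. Egr1, already bright at 6347, 6875 and 6385, reached 8588, 8754 and 8227, a change of 0.38. The corepressors of EGR factors, Nab1 and Nab2, rose by 0.24 and 0.35 (the second call was lost without day 7 replicate 2), while Egr2 at 0.48 and Egr4 at 0.22 were not called.

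The NR4A and KLF factors had the highest median of the 26 lists plotted, 1.20, with 11 of 13 members higher, 1 lower and 1 not called. Klf9 read 814, 737 and 885 at day 7 and 3005, 2673 and 2400 at day 14, a 3.31-fold rise, and its 4 brighter other probe sets rose by 1.68 to 1.86. Klf4, a factor that restrains division in several tissues, went from 281, 307 and 369 to 1125, 1267 and 904. Klf2, which keeps T cells quiescent, rose by 1.24. The orphan nuclear receptor gene Nr4a3 rose by 1.81, from 115 ± 16.6 to 408 ± 73.8 (SD, n = 3 each), and Nr4a2 by 1.23; Nr4a1 rose by only 0.30. A second, dim probe set of Nr4a3 (mean 32.3) changed by 0.13 without a call. Klf3 fell by 0.30, a call that was lost under both other scalings and with the mean of its probe sets, and Klf5 was not called.

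Of 16 AP-1, ATF3 and MAF genes 13 rose, 1 fell and 2 were not called, with a median of 0.52. Fosb went from 469, 500 and 442 to 1564, 1497 and 1033, and the small MAF gene Maff from 281, 288 and 259 to 887, 780 and 699, both changes of 1.51. Fosl2 rose by 1.12, the stress factor gene Atf3 by 1.26 and Jund by 0.79. The founding members of the family were not called: Fos ran from 6885 to 7593 at day 7 and from 7354 to 7849 at day 14, and Jun changed by 0.25 (SE 0.13). Batf, which pairs with JUN proteins in lymphocytes, fell by 0.64. Their 95% intervals, -0.12 to 0.22 for Fos and -0.03 to 0.54 for Jun, do not include a rise like that of Fosb.

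Brakes of growth signalling were mixed. Among 12 genes of phosphatases of ERK or stress kinases and of Sprouty or SPRED proteins, 4 rose, 1 fell and 7 were not called. The rises were all in dual-specificity phosphatases: Dusp16, which acts on stress kinases, rose 3.01-fold, from 117, 104 and 116 to 351, 341 and 324, and Dusp10, Dusp8 and the nuclear ERK phosphatase gene Dusp5 rose by 0.94, 0.60 and 0.52. The cytoplasmic ERK phosphatase gene Dusp6 changed by -0.01 and Spry2 by 0.07. The fall of Spred2 (-0.25) was lost in several alternatives, including both other scalings. Of 9 antiproliferative BTG/TOB and mRNA decay ZFP36 genes 6 rose and 3 were not called; Btg1, which restrains growth in resting cells, read 854, 844 and 1015 at day 7 and 2679, 2497 and 1841 at day 14, a 2.56-fold rise.

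**Figure D4:**
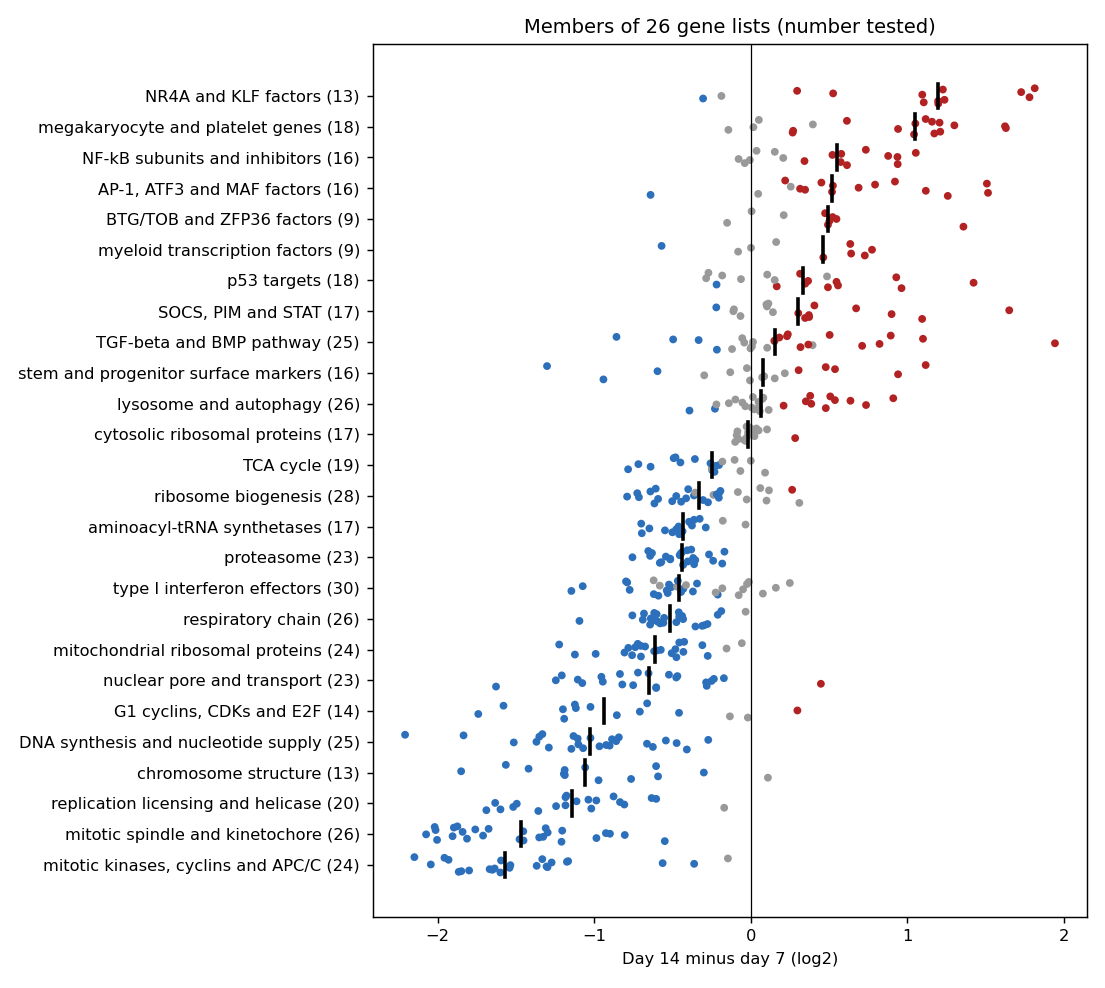
Each row is 1 of 26 gene lists with the number of members tested, each point a member's log2 change from day 7 to day 14 (red called higher, blue called lower, grey not called), and the black bar the list median. Mitotic, replication and nuclear pore genes lie to the left, cytosolic ribosomal proteins at -0.02, and NR4A and KLF factors (1.20) and megakaryocyte genes (1.05) to the right.

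Feedback genes of NF-kB, the factor that drives inflammatory transcription, were higher. Of 16 subunits and inhibitors 10 rose and 6 were not called, with a median of 0.55. Tnfaip3, the deubiquitinase A20 that ends NF-kB signalling, read 783, 725 and 896 at day 7 and 1756, 1663 and 1559 at day 14, a 2.08-fold rise (log2 change 1.05, SE 0.19, adjusted p 0.0011 by limma). Nfkbiz, an inducible cofactor, and Birc3, a ubiquitin ligase, each rose by 0.94, and the subunit gene Rel by 0.88, from 201 ± 21.7 to 371 ± 46.1 (SD, n = 3 each). Nfkbia, the inhibitor IkB-alpha and the brightest member, went from 6422, 6195 and 6567 to 8556, 7944 and 7838; the call on its change of 0.34 was lost with no brightness filter and on leaving out any 1 of the 6 arrays except day 14 replicate 3. Nfkbib at -0.01, Tnip2 at 0.04 and Cyld at -0.04 were not called.

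The NF-kB motif, searched by its name on both strands, stood in 8 of 14 windows of this list (57.1%) and in 7 of 12 of the cytokine list (58.3%), against 10.6% of tested genes. High shares were also found in other lists: 3 of 4 EGR and NAB genes (75%), 5 of 13 NOTCH genes (38.5%) and 6 of 18 TCA cycle genes (33.3%). The NR4A and KLF list had 0 of 11. The promoters of Tnfaip3 (chr10:19015411-19015565, - strand) and Rel (chr11:23771021-23771091, - strand) are shown with the matches in capitals, since both genes rose; Tnfaip3 has 2 RefSeq windows, and part of 1 is shown.
Tnfaip3: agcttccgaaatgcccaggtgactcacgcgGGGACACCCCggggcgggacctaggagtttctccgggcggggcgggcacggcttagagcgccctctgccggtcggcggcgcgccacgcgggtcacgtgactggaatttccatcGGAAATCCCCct
Rel: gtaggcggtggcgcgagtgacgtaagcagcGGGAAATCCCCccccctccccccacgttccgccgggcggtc

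The cytokines themselves did not follow in a block. Of 17 measured cytokine and chemokine genes 7 rose, 2 fell and 8 were not called. Tnf, the founding member of its family and an inducer of NF-kB, read 97.8, 134 and 127 at day 7 and 65.1, 50.9 and 58.9 at day 14, a change of -1.03. Ccl9, a myeloid chemokine, rose by 0.84, a call lost with no brightness filter. Without day 7 replicate 2, or with no brightness filter, 4 of the list rose in place of 7. With arrays set to the same 75th percentile, 1 fell in place of 2. Outside this list, Il1r2, a decoy receptor that binds interleukin-1 without signalling, rose 3.02-fold, from 74.7, 64.4 and 102 to 286, 204 and 231, and the inflammasome gene Nlrp3 rose by 1.74.

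Genes that answer cytokine receptors through JAK and STAT rose in 9 of 17 cases, with 1 lower (a call lost under both other scalings) and 7 not called. Socs3, the feedback inhibitor of STAT3 signalling, read 419, 367 and 486 at day 7 and 1915, 1265 and 954 at day 14, a 3.14-fold rise with a wide spread at day 14. Cish, a target and brake of STAT5, rose 2.13-fold, from 170, 196 and 207 to 435, 401 and 385. The survival kinase gene Pim2 rose by 0.90 and Stat3 by 0.67. Socs1 (0.14) and Socs2 (-0.11) were not called.

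In the TGF-beta and BMP pathway the corepressor genes Skil and Ski and the TGF-beta receptor genes rose. Skil, the SMAD corepressor SnoN, read 1071, 868 and 932 at day 7 and 3723, 3782 and 3496 at day 14, a 3.84-fold rise (log2 change 1.94, SE 0.11, adjusted p 1e-05 by limma). Its groups were separated by more than 2000 units, and a dim second probe set rose by 1.79. The related gene Ski rose by 0.82, the inhibitory SMAD gene Smad7 by 1.10 and the type II receptor gene Tgfbr2 by 0.89, from 747 ± 55.9 to 1387 ± 71.9 (SD, n = 3 each). The receptor genes Tgfbr3 and Tgfbr1 rose by 0.50 and 0.23, and the BMP and activin receptor gene Acvr1 fell by 0.22, a call lost under both other scalings and when 1 of several arrays was left out. The other inhibitory SMAD gene, Smad6, fell by 0.50. Among the SMADs that carry the TGF-beta signal, Smad2 changed by 0.01 and Smad3 by 0.15, and neither was called. Tgfbi, a matrix protein named for its induction by TGF-beta, fell by 0.86. In all, 12 of 25 members rose, 4 fell and 9 were not called; with arrays set to the same 75th percentile or with the mean of probe sets, 2 fell.

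Of the measured HES and HEY genes, targets of NOTCH, Hes1 and Hey1 rose and Hes5 was not called (0.00). Hey1 read 70.4, 59.4 and 61.3 at day 7 and 291, 234 and 204 at day 14, a 3.78-fold rise, and Hes1, a repressor downstream of several pathways, went from 262, 300 and 400 to 1086, 795 and 764. Both groups were fully separated in both genes. The receptor genes Notch1 (-0.17) and Notch2 (0.14) and the DNA-binding partner Rbpj (0.13) were not called, and Notch4 was dim in 2 of 3 day 14 arrays. The coactivator gene Maml1 rose by 0.76 and the ligand genes Jag2 and Dll1 by 0.69 and 0.50; the call of Jag2 was lost with no brightness filter and without day 7 or day 14 replicate 1, and Dll1 was dim in 1 day 7 array. Of 17 members 6 rose, 2 fell and 9 were not called, and 11 rose and none of the 2 falls remained with arrays set to the same 75th percentile; 1 fell after quantile normalization. In the WNT pathway 3 of 17 rose and 3 fell; with that scaling 7 rose and none of the 3 falls remained, after quantile normalization 1 fell, and with the mean of probe sets or the stricter filter none of the 3 rises remained. Lef1, a nuclear partner of beta-catenin, rose at least 1.46-fold from a dim level.

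Many antiviral effectors that type I interferon induces fell between day 7 and day 14. Of 30 effectors 17 fell and 13 were not called, with a median of -0.46 and changes from -1.15 to 0.25. Ifit1, which binds foreign RNA, read 213, 125 and 165 at day 7 and 55.9, 88.5 and 82 at day 14, a 2.21-fold fall (log2 change -1.15, SE 0.21, adjusted p 0.0012 by limma), with a control mean of 376 ± 56.7. Oas3, which senses double-stranded RNA, fell by 1.07 and Rtp4 fell by 0.79. Usp18 and Ifit3 changed by -0.80 and -0.77, calls that were lost in several alternatives. The count of falls moved with the processing: 10 with arrays set to the same 75th percentile, 7 with no brightness filter, 10 with array weights, 7 without day 7 replicate 1 and 8 without day 14 replicate 1. Mx1 (-0.18), Ifitm3 (-0.05) and Rsad2 (0.25) were not called.

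Of 8 immunity-related and guanylate-binding GTPases 1 fell, Irgm2, from 204, 168 and 176 to 92.5, 103 and 107, and 7 were not called. With arrays set to the same 75th percentile, 2 of the GTPases were higher. In antigen processing by MHC class I, 5 of 12 genes fell and 7 were not called, of which 3 were higher with that scaling. The 3 catalytic subunits of the immunoproteasome were among the 5 that fell (Psmb9 by 0.66, Psmb10 by 0.62 and Psmb8 by 0.56). Falls were not particular to them, since all 23 genes of the proteasome list fell too, with changes down to -0.76 and a median of -0.44. The genes of the presenting chain and its partner, H2-K1 (-0.02), H2-D1 (0.14) and B2m (0.04), were not called. Receptors and IRFs split, with Irf4 and Irf8 among 3 of 12 higher and Ifngr2 (-0.61) and Irf3 (-0.39) lower; 5 were higher after quantile normalization and 6 with arrays set to the same 75th percentile, and 1 with no brightness filter or on leaving out day 7 replicate 1, day 7 replicate 2 or day 14 replicate 2.

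The interferon response element, ISRE, searched by its name on both strands, stood in 7 of 21 effector windows (33.3%) and in 6 of 6 windows of the GTPases, against 3.20% of tested genes. The promoters of Ifit1 (chr19:34640755-34640843, + strand) and Irgm2 (chr11:58214883-58214952, + strand) are shown, with the matches in capitals, as the largest falls of their lists.
Ifit1: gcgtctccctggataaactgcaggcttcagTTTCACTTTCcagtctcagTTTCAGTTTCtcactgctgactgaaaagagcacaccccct
Irgm2: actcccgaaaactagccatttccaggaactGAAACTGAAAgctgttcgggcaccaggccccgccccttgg

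Genes shared by platelets, megakaryocytes and megakaryocyte-biased stem cells rose. Of 18 measured members 14 rose and 4 were not called, with a median of 1.05. Pf4, a platelet chemokine, read 175, 207 and 228 at day 7 and 585, 608 and 680 at day 14, a 3.08-fold rise (log2 change 1.62, SE 0.13, adjusted p 1.8e-05 by limma). Itgb3, the beta chain of the platelet fibrinogen receptor, went from 86, 80.2 and 86.5 to 222, 265 and 301, and its partner Itga2b (CD41) from 287, 265 and 254 to 486, 493 and 570. Vwf, a platelet adhesion protein also made by a subset of stem cells, went from 49.6, 48 and 49.7 to 108, 104 and 107. The day 14 arrays were above the day 7 arrays in each of these genes.

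Late platelet genes did not all take part. Gp9 changed by -0.14 and Tubb1, the platelet tubulin, by 0.05, without a call, and Gp6, the collagen receptor, ran from 7.44 to 10.5, under the dim limit in all 6 arrays. Ppbp, an abundant platelet product, read 18.3, 103 and 17.6 at day 14, high in 1 array only, and was not called. The summed intensity of the 19 megakaryocyte genes with a probe set was 4851 to 5164 at day 7 and 9319 to 9532 at day 14. Most of that gain came from F2r, a thrombin receptor also found on other cells, at 1251, 1161 and 1324 and then 2832, 2844 and 2733, and from Plek, a substrate of protein kinase C in platelets and leukocytes, at 1025, 960 and 1049 and then 2661, 2461 and 2353. The part of admixed megakaryocytes or platelets in this rise was not tested.

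Among the markers of the stem and progenitor surface, 5 of 16 rose, 3 fell and 8 were not called, with a median of 0.08; 8 rose with arrays set to the same 75th percentile. Cd48, carried by multipotent progenitors and absent from the most primitive stem cells, read 1296, 1311 and 1405 at day 7 and 598, 719 and 784 at day 14, a 1.92-fold fall (log2 change -0.94, SE 0.10, adjusted p 4.8e-05 by limma). Its counterpart Slamf1 (CD150), which marks primitive stem cells, changed by -0.03, and Procr, the stem cell receptor EPCR, by -0.13, without calls. Tek and Robo4, receptors of stem and endothelial cells, rose by 0.48 and 0.54. Thy1 fell by 1.30, from 61.3, 51.1 and 43.5 to 19.9, 16.9 and 27, close to the dim limit.

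Stem cell transcription factors rose in 6 of 20 cases, fell in 3 and were not called in 11. Zbtb16, which encodes PLZF, rose 2.48-fold, from 83.3, 73.9 and 78.5 to 171, 199 and 218. Runx1 rose by 0.73, Fli1 by 0.66 and Gata2 by 0.56. Gfi1, a repressor that holds back division, fell by 0.57, and Mecom (0.07), Hlf (0.14) and Erg (-0.14) were not called. With arrays set to the same 75th percentile 10 rose; with array weights, without control replicate 3 or in a fit of the 6 arrays alone 5 fell. In the HOX and MEIS list 1 of 11 rose and 2 fell, but 3 rose under both other scalings, with 1 lower after quantile normalization and no call lower with arrays set to the same 75th percentile: Hoxa9, a driver of self-renewal, read 2006, 2278 and 2188 at day 7 and 1727, 1538 and 1805 at day 14, a change of -0.35, a call lost with that last scaling. The rise of Meis1 (0.34) turned to -0.02 with the mean of its probe sets.

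Myeloid identity genes moved in part. Csf1r, the receptor of macrophage colony-stimulating factor, read 753, 529 and 754 at day 7 and 1261, 1865 and 1470 at day 14, a 2.26-fold rise, and its other probe sets rose by 1.09 and 0.83. Cd14 and Fcgr3, receptors of monocytes, rose by 1.22 and 1.09, and the myeloid factors Cebpb, Cebpd and Cebpa by 0.73, 0.64 and 0.46; the call of Cebpd was lost with no brightness filter or without day 7 replicate 2. In the monocyte and dendritic list 5 of 19 rose, 2 fell and 12 were not called. With the stricter filter 3 rose, and with arrays set to the same 75th percentile 1 fell. Among the falls, Cd68 went from 122, 115 and 136 to 72.3, 109 and 79.1, a change of -0.54. Lyz2 changed by -0.20, a call lost in several alternatives. Of 9 myeloid transcription factors and receptors 5 rose, 1 fell (Gfi1, by 0.57) and 3 were not called. With no brightness filter or without day 7 replicate 2, 3 rose. Granule proteins of neutrophils did not rise together: Mpo, myeloperoxidase, ran from 3700 to 4522 at day 7 and from 3969 to 5047 at day 14, and S100a8 read 28.9, 46.8 and 40.9 and then 15.3, 12.2 and 23.3. The summed intensity of the 16 granule genes was 7488 to 9290 at day 7 and 8352 to 10532 at day 14, and the ranges overlapped.

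Lymphoid genes were divided. Rag2, a subunit of the recombinase that builds antigen receptors, read 23.8, 27.8 and 36.5 at day 7 and was dim in all 3 day 14 arrays, a fall of at least 1.93-fold, while Ebf1, the factor that starts the B lineage, was dim at day 7 and read 27.9, 45.2 and 20.4 at day 14, a rise of at least 2.07-fold. Dntt, the nucleotide-adding enzyme of lymphoid progenitors, fell by 0.64. In the B lineage list 4 of 16 rose, 4 fell and 8 were not called. In the T and NK list 6 of 13 rose and 2 fell. Klrd1, an NK receptor chain, read 31.2, 41.9 and 51.1 and then 132, 107 and 120. The brighter gene Nkg7 fell by 0.64, from 809, 824 and 824 to 511, 485 and 585. Prf1 overlapped between the days, and Gzma was above the dim limit in 3 arrays at day 7 and 1 at day 14. The T cell chains Cd3d and Cd3g were under the dim limit in all 6 arrays. The third chain, Cd3e, was above it in all 6 and rose by 0.30. Of 9 erythroid genes limma called none (1 lower at an unadjusted p below 0.05), and with the 6 arrays alone or without control replicate 1 there were 2 higher and 3 lower. Car1 read 134, 162 and 143 at day 7 and 32.7, 36.4 and 94.8 at day 14 (-1.59). It was called only in those 2 alternatives, as was Ermap (-0.79). Against the control mean, the list median in the control arrays was 0.52, -0.31 and -0.35, a spread that enters the main fit. Under both other scalings 1 erythroid gene was higher. Klf1, the master factor of red cell genes, read 55, 57.7 and 62.4 at day 7 and 30.9, 31.3 and 45.1 at day 14, without overlap and without a call (log2 change -0.73, adjusted p 0.18 by limma).

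Mast cell and basophil genes included the largest rise among all genes named here. Gzmb, the serine protease granzyme B of cytotoxic and mast cells, read 55.7, 57.3 and 77.6 at day 7 and 388, 343 and 469 at day 14, a 6.31-fold rise (log2 change 2.66, SE 0.29, adjusted p 5.6e-05 by limma). Cpa3, a mast cell protease also present in progenitors, went from 337, 347 and 322 to 634, 735 and 735. Mcpt8, a basophil protease, fell by 0.69, and Fcer1a and Tpsb2, defining genes of mature mast cells, were under the dim limit in all 6 arrays. The summed intensity of the 9 genes with a probe set was 1284 to 1362 at day 7 and 2111 to 2387 at day 14. That sum contains Gzmb itself. Most of its gain came from Gzmb, Cpa3 and Gata2, the last at 531, 557 and 587 and then 880, 736 and 869. The part of admixed mast cells or basophils in the rise of Gzmb was not tested.

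Genes that place stem cells in the marrow changed on a smaller scale. Of 19 adhesion and homing receptors 10 rose, 3 fell and 6 were not called; with arrays set to the same 75th percentile 1 fell. Cxcr4, the receptor of the chemokine that holds stem cells in the marrow, read 821, 763 and 929 at day 7 and 1235, 1380 and 1280 at day 14, a rise of 0.64. S1pr1, which guides exit to the blood, rose by 0.80, and the integrin gene Itgb2 fell by 0.66, from 157 ± 2.99 to 99.9 ± 12.1 (SD, n = 3 each). Of 16 stromal, endothelial and osteoblast genes 8 were above the dim limit in all 6 arrays and 6 were under it in all 6, among them Col1a1, Col3a1, Pdgfra and Cdh5. Of the 10 tested 6 rose and 4 were not called, with a median of 0.26; 3 rose with the stricter filter or with the mean of probe sets. Pdgfrb, a receptor of mural and stromal cells, was the brightest, at 665, 704 and 649 and then 1443, 1512 and 1328, and made up most of the summed intensity of the list, 997 to 1027 at day 7 and 1749 to 1925 at day 14. The endothelial receptor gene Kdr rose by 0.77, and Pecam1, which leukocytes and platelets also carry, by 0.40. The part of admixed stromal or endothelial cells in these rises was not tested.

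Machinery for making and clearing proteins fell with the cell cycle, but cytosolic ribosomal proteins did not. Of 17 ribosomal protein genes 16 were not called and Rpl37 rose by 0.28, with a median of -0.02; 4 rose with arrays set to the same 75th percentile. Rplp0 read 7823, 7823 and 7903 at day 7 and 7823, 7939 and 7823 at day 14; such exact ties run through the deposited table. Of 28 ribosome biogenesis genes 19 fell, 1 rose and 8 were not called (2 rose after quantile normalization and 3 with arrays set to the same 75th percentile), with a median of -0.33, led by the nucleolar gene Nop16, from 295, 329 and 310 to 147, 191 and 208. Aminoacyl-tRNA synthetases, which charge tRNAs, fell in 15 of 17 cases, with Rars, the arginine enzyme, at -0.70. All 23 proteasome genes fell, by a median of 0.44 on the log2 scale; the catalytic subunit Psmb5 went from 792, 811 and 825 to 446, 475 and 519.

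Nuclear transport fell in 22 of 23 genes, with a median of -0.65. Kpna2, an importin that is itself cell cycle regulated, read 971, 861 and 750 at day 7 and 239, 288 and 308 at day 14, a 3.09-fold fall, and Nup37 and Nup93, parts of the pore scaffold, fell by 1.25 and 1.21. Nup153, a pore basket protein, was the exception and rose by 0.45, a call that was lost with the mean of its probe sets. Splicing factors were mostly steady, with 5 of 22 higher, 3 lower and 14 not called; 12 were higher with arrays set to the same 75th percentile.

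Mitochondrial genes fell across the respiratory chain. Of 26 subunits 25 fell and Uqcrc2 was not called, with a median of -0.51. Ndufa4, a subunit of the terminal oxidase, read 3093, 3291 and 3344 at day 7 and 1474, 1513 and 1568 at day 14, a 2.14-fold fall (log2 change -1.09, SE 0.07, adjusted p 1.2e-05 by limma). It was the largest fall in the list by far: the next, Ndufv2, changed by -0.76. Mitochondrial ribosomal proteins fell in 22 of 24 cases, with a median of -0.61, and Mrps22 went from 302, 310 and 299 to 119, 145 and 128. In the TCA cycle 13 of 19 fell and 6 were not called, or 7 fell with arrays set to the same 75th percentile; Fh1, fumarase, changed by -0.78. Among 17 glycolytic genes 8 fell, led by the isomerase gene Tpi1 (-0.86), and 3 rose, among them the glucose transporter genes Slc2a1 (0.57) and Slc2a3 (0.50, not called with the mean of its probe sets); 5 rose with arrays set to the same 75th percentile.

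**Figure D5:**
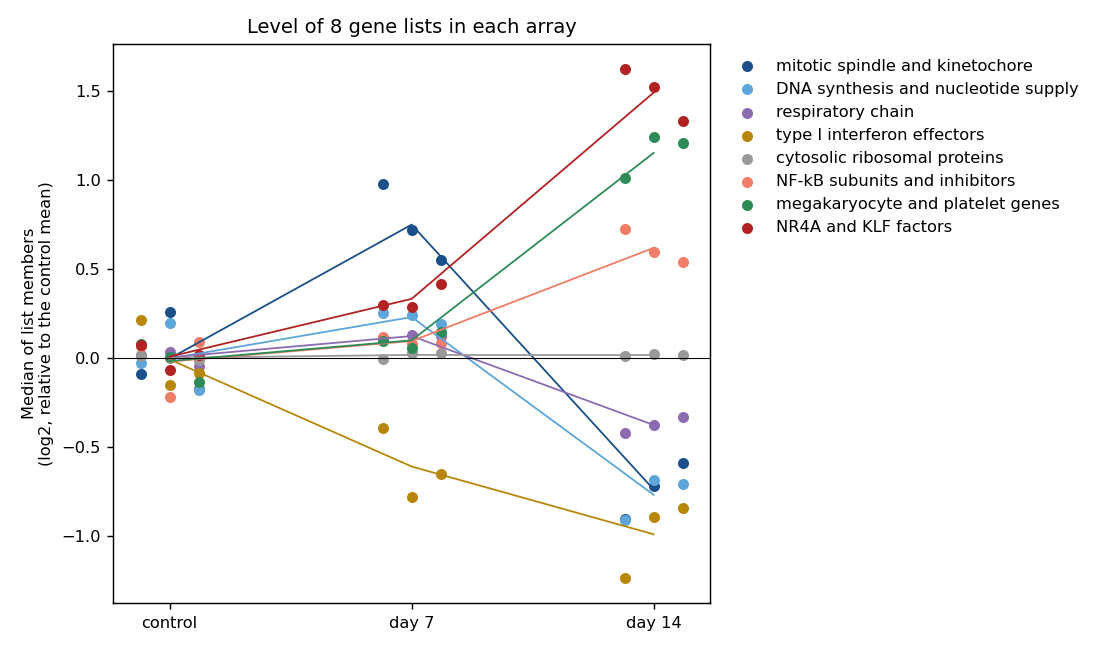
Each point is the median log2 value of a list's members in 1 array, relative to the control mean of each gene, for 8 lists in the control, day 7 and day 14 arrays; lines join group means. Spindle and kinetochore genes lie above control at day 7 (0.55 to 0.98) and below it at day 14 (-0.90 to -0.59), NR4A and KLF factors reach 1.33 to 1.62 at day 14, and cytosolic ribosomal proteins stay within 0.03 of control.

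Uhrf1, which brings the maintenance methyltransferase to new DNA, read 1147, 1093 and 1039 at day 7 and 352, 447 and 358 at day 14, a 2.85-fold fall, and the methyltransferase gene Dnmt1 itself fell by 1.12. Ezh2, the polycomb methyltransferase, fell by 0.76 while its paralog Ezh1 rose by 0.40, a call lost with the mean of its probe sets. In the polycomb and DNA methylation list 7 of 20 fell and 5 rose, against 33.6% and 17.4% of all genes, with 8 higher after quantile normalization and 9 with arrays set to the same 75th percentile. Among demethylases and deacetylases 8 of 20 rose and 4 fell, or 2 fell with arrays set to the same 75th percentile or without day 14 replicate 1: Kdm7a rose 2.29-fold, from 164, 146 and 167 to 392, 368 and 333, Kdm6b and Kdm5b rose by 0.93 and 0.84, and the deacetylase gene Hdac1 fell by 0.49.

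Stress and survival genes rose in part. Of 18 p53 targets 10 rose, 1 fell (a call lost with arrays set to the same 75th percentile) and 7 were not called; Gadd45b, a growth arrest gene, read 270, 263 and 303 at day 7 and 843, 710 and 693 at day 14, a 2.68-fold rise, and Bbc3, which encodes the death protein PUMA, rose by 0.96. The 10 rises became 6 with no brightness filter, 6 on leaving out day 7 replicate 1 or day 14 replicate 2, and 5 on leaving out day 7 replicate 2. The survival gene Mcl1, needed by blood stem cells, rose by 0.67, from 2490 ± 51.8 to 3986 ± 540 (SD, n = 3 each), and the initiator caspase gene Casp8 fell by 0.60. In the integrated stress response the factors rose, Ddit3 (CHOP) by 0.89 and Atf4 by 0.52, whereas enzymes of serine and one-carbon metabolism fell: Psat1 by 0.76, Mthfd2 by 0.70, Phgdh by 0.62 and Shmt2 by 0.57.

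Several of the largest changes were in genes on none of the lists. Rgcc, a regulator of CDK1 activity, rose 4.63-fold, from 112, 121 and 129 to 646, 700 and 388. St8sia6, a sialyltransferase gene, went from 53.7, 52.7 and 55.7 to 256, 277 and 240. Rabgef1, which acts on endosomal RAB5, read 378, 293 and 341 and then 1094, 1001 and 997, and the protease inhibitor gene Timp3 rose by 1.74. Lmna, the gene of lamins A and C, rose 3.08-fold from a low level, 37.3, 40.3 and 40.3, to 118, 121 and 124; a dimmer probe set changed by 0.27. Among the lower genes was Ddx4, an RNA helicase known from germ cells, which read 205, 245 and 249 at day 7 and 46.1, 49 and 60.8 at day 14, a 4.50-fold fall. Lrr1, part of a ubiquitin ligase that unloads the replication helicase, had the largest fall of all named genes, from 199, 200 and 187 to 26.1, 49.8 and 42.6.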

How the data were processed

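The deposited table holds 1 normalized intensity per probe set and array. Per the series design text, RNA went through a 2-cycle amplification and the authors normalized signals with MAS 5.0. Of 45037 probe sets, 51.64% have values exactly tied between arrays; the step that made the ties is not given in the sources used here. Intensities were taken to log2 after a floor at the 20th percentile (5.81). Each gene was given its probe set with the highest mean, from 34945 probe sets with 1 symbol (932 have several and 9160 none). A gene was tested if it was above its array's 40th percentile in at least 3 of the 9 arrays, which left out 5541 genes. limma 3.58.1 (R 4.3.3) fitted 3 group means over all 9 arrays, and the two-sided moderated test of day 14 minus day 7 was adjusted by Benjamini-Hochberg. On simulated data for this comparison (12652 genes, 200 changed at each size) the fit recovered 0%, 73.5%, 98.5% and 100% of log2 changes of 0.25, 0.5, 1 and 2. In the data 51% of genes were called, which makes the adjusted threshold less strict. The simulated shares therefore do not carry over to the data, where many smaller changes were called.

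The comparison, gene lists and tests were chosen with earlier results of these data known, and 2 lists are not reported here. Named genes are the 20 largest called, non-overlapping changes per direction, up to 5 called members per list and direction (2 where none was called), the 10 largest intensity differences per direction, 6 steady bright genes and 16 fixed symbols. Other genes named, such as Fos, Jun, Cdkn1c, Slamf1, Mcm6, Foxm1, Gp9 and all uncalled list members, were chosen after their values were seen. A fold written "at least" is set against the lowest bright level of arrays in which the gene was dim. Promoter windows come from RefSeq (GRCm38.p6) and were at hand for 10252 of the 12652 genes. Alternatives changed the scaling, floor, filter, probe set rule, variance prior, array weights and arrays used.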

Additional observations from a re-analysis of the deposited data

How the results depend on the processing

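The number of genes called ran from 5476 to 6574 when 1 array was left out (1736 to 2248 higher and 3704 to 4326 lower). With arrays set to the same 75th percentile, 4029 genes were higher. Asking for a change of at least 2-fold left 446 genes, 118 higher and 328 lower. No other alternative run moved these counts by more than 1.5 times. Of 385 named genes that were called, 309 kept direction and call in every alternative. When probe sets of a gene were averaged, 8 named genes turned: Acvr1 to 0.025, Atp6v1h to 0.049, Eprs to 0.0024, Hspa4 to -0.15 (the only one of them called, adjusted p 0.0416 by limma), Meis1 to -0.016, Polr2a to 0.053, Rnf2 to -0.064 and Spred2 to 0.18; the cause was not tested. Same-numbered arrays of the days did not deviate together, so the numbers were not taken as pairs; with a replicate block 6257 genes were called (2108 higher and 4149 lower), 6128 of them among the 6455. A call on a dim gene rests on little signal over background, and 3 arrays a group, with a median SE of 0.08, limit what small changes could be called.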

Other observations

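Genes of stored and recycled material moved in part. Of 26 lysosome and autophagy genes 10 rose, 2 fell and 14 were not called, with a median of 0.07; under both other scalings 1 fell. Sqstm1, the autophagy receptor p62, read 553, 600 and 677 at day 7 and 1241, 1086 and 1105 at day 14, a 1.88-fold rise. Of 16 cholesterol genes 5 rose and 2 fell, falls that were lost under both other scalings, without day 7 replicate 1 and without day 14 replicate 2 (4 fell with array weights); Insig1, which restrains sterol synthesis, went from 324, 329 and 343 to 714, 651 and 566. Among 15 hypoxia-inducible genes 5 rose, 2 fell (1 under both other scalings) and 8 were not called. Vegfa, the vascular growth factor, read 155, 140 and 182 and then 532, 409 and 390, a 2.78-fold rise, and Ndrg1, a stress-responsive gene, rose by 0.82. The count of 5 hypoxia genes became 3 without day 7 replicate 2 or 3 and without day 14 replicate 1 or 3.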
